A study of Saccharomyces cerevisiae with 7 samples.

Results

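A group of 8 cell wall genes of *Saccharomyces cerevisiae* was followed through the binding sites of 5 Pumilio (Puf) proteins. They were chosen by name as mannoproteins that a glycosylphosphatidylinositol (GPI) anchor carries to the wall: CCW12 (YLR110C), SED1 (YDR077W), CWP2 (YKL096W-A), CCW14 (YLR390W-A), TIP1 (YBR067C), SPI1 (YER150W), CWP1 (YKL096W) and TIR1 (YER011W). These are 8 of the 6550 genes in the deposited table of mRNA levels. All called sites bearing their names were taken, 63 of the 10580 sites in the 5 lists. The choice was made with the sites of these genes known, so their counts and site signals describe them and carry no test.

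Puf1, Puf2, Puf4, Puf5 and Puf6 had 1 CLIP (crosslinking and immunoprecipitation) library each, from haploid cells of mating type a with the genotype his3Δ1 leu2Δ0 met15Δ0 ura3Δ0 and the named PUF gene fused to a TAP tag with the HIS5 marker. Cultures grew at 30 °C in synthetic medium with 200 µM 4-thiouracil, a uridine analogue that crosslinks to bound protein under 365 nm light. Cells received 4 exposures of 150 mJ/cm2, lysates were treated with RNase T1, which cuts after G, and the RNA in the band of the tagged protein was sequenced. Levels of mRNA came from 2 samples of strain BY4742 labelled puf3Δ::KAN, deposited as 1 column of RPKM (reads scaled to gene length and library depth). These cells also grew at 30 °C, and their labels name no 4-thiouracil and no light exposure. No library of untagged cells was used here, and no background was subtracted here from the deposited sites. Whether the authors' site calling subtracted any is not stated by the labels or headers.

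Puf proteins are RNA-binding proteins whose repeats each contact a base, and many of their known elements in 3' untranslated regions (UTRs) begin with UGU. In yeast they are best known for repressing or destabilizing bound mRNAs, while Puf6 is also a nucleolar factor of large ribosomal subunit assembly. GPI wall proteins are made in the endoplasmic reticulum, receive a lipid anchor and mannose chains, and are then joined to wall glucan. Their mRNAs are short and several are among the most abundant of growing cells.

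Site strength is given in RPM, reads relative to library depth as the authors scaled them, and reads per site could not be recovered from these values. With 1 library per protein no site has a replicate error, and RPM values of different libraries stand side by side without a test. The 5 lists held 899 to 3361 sites, of which 435 to 2264 lay in mRNAs. Puf6 stood apart, with 45462 RPM over its mRNA sites against 532157 to 758889 RPM in the other 4 libraries. In the mRNA samples, the 6 markers of a cells had 1.11 to 5.61 RPKM and the 4 of alpha cells had 196 to 1323 RPKM, so the levels belong to cells of the other mating type than the CLIP strains. PUF3 had 23.6 RPKM in these samples labelled puf3Δ, which 24.1% of protein-coding genes fall below.

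The level of the 8 mRNAs spanned a wide range. CCW12, a major structural protein of the wall, had 12775 RPKM and ranked 2 of 5880 protein-coding genes. SED1, an abundant structural glycoprotein that is further induced in stationary phase, followed with 2780 RPKM at rank 41. CWP2, a wall mannoprotein encoded next to CWP1 on chromosome XI, had 732 RPKM, CCW14, a protein of the inner wall layer, 629 RPKM, and TIP1, induced by cold and heat shock, 601 RPKM. CWP1, which is deposited at the birth scar, had 396 RPKM and SPI1, induced by weak acids and in stationary phase, 180 RPKM. TIR1, a protein of cold-shocked and anaerobic cells, had 3.55 RPKM. The median of the 8 was 615 RPKM, against 56.0 RPKM over all 5880 genes. For each gene, the number of cells that express it and the RNA per cell cannot be told apart in such bulk extracts.

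Sites were called in 6 of the 8 genes. CCW12, SED1 and CWP2 had sites in all 5 libraries, CCW14 in Puf1, Puf2 and Puf5, TIP1 in Puf5 and Puf6, and SPI1 in Puf5. CWP1 and TIR1 had none. Of the 5521 protein-coding genes with at least 1 RPKM, 0.688% had sites in all 5 libraries and 42.1% in at least 1. Among the 1025 genes at or above the level of SPI1 these shares were 3.51% and 78.0%.

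By library, Puf1 had sites in 4 of the 8 genes, against 5.81% of all genes tested, and Puf2 also in 4, against 11.7%. Puf4 had sites in 3, against 19.7%, Puf5 in 6, against 25.0%, and Puf6 in 4, against 6.34%. Abundant mRNAs were called more often in every list. At or above the level of SPI1, which takes in all of the 8 but TIR1, the shares of genes with a site were 18.6% with Puf1, 34.2% with Puf2, 50.1% with Puf4, 50.2% with Puf5 and 16.1% with Puf6. Since the genes were chosen with their sites known, nothing is read from these counts.

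**Figure D1:**
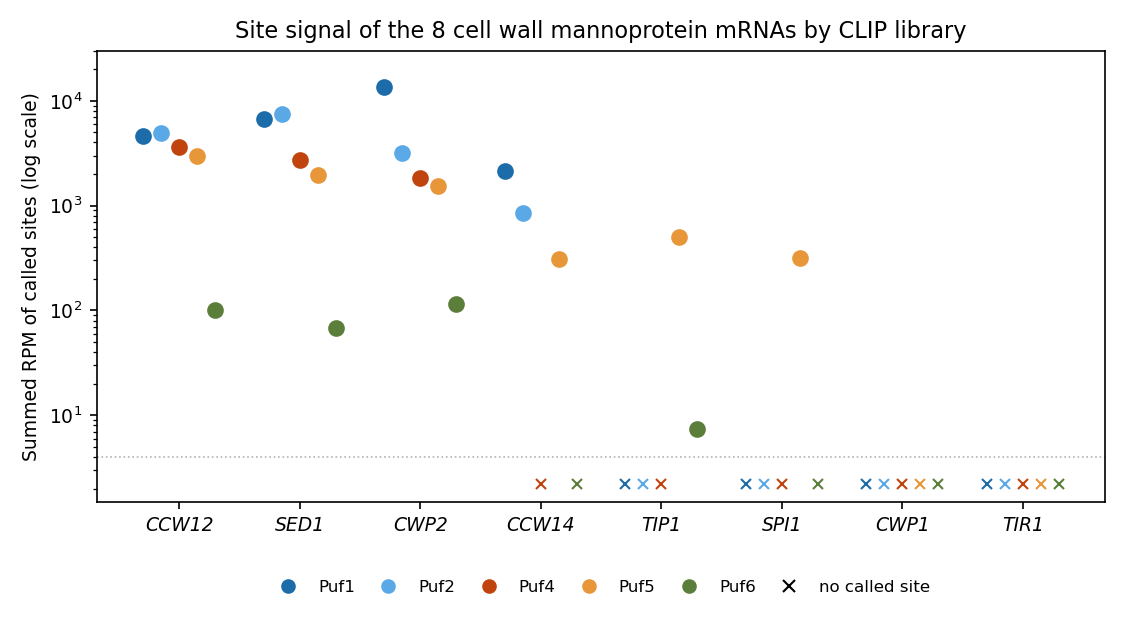
Summed RPM of all called sites of each gene (log axis) in each CLIP library, with genes ordered from most to fewest libraries with a site. Each point is 1 library and crosses below the dotted line mark genes without a called site. CCW12, SED1 and CWP2 lie between 1551 and 13530 RPM in Puf1, Puf2, Puf4 and Puf5 and at 68.2 to 114 RPM in Puf6.

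CCW12 (chromosome XII, 369697 to 370098, minus strand, sacCer3) had its strongest site at the start codon in 4 of the 5 libraries. This site was called at 370096 to 370116 in Puf1 (4512 RPM), Puf2 (2577 RPM) and Puf5 (1673 RPM) and at 370096 to 370117 in Puf4 (2408 RPM). It was classed as 5' UTR, reached 18 or 19 nt upstream of the start codon and covered at least 2 of its 3 bases under either way of counting positions, with the first base of a chromosome as 0 or as 1. Puf6 had no site there.

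Among all 5' UTR sites of its library, the CCW12 site ranked 2 of 76 in Puf4, 3 of 209 in Puf5, 6 of 44 in Puf1 and 10 of 93 in Puf2. It held 98.9% of the CCW12 signal in Puf1, 66.3% in Puf4, 56.8% in Puf5 and 51.8% in Puf2. With CCW12, 5 protein-coding genes, 0.0906% of those tested, had 5' UTR sites in at least 4 libraries. The other 4 were CTS1, MFA2, NCE102 and YCR024C-B, chosen for mention after their values were seen.

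The rest of the CCW12 signal lay downstream. A 3' UTR site 53 to 76 nt past the stop codon had 2244 RPM in Puf2, 613 RPM in Puf5 and 583 RPM in Puf4, and all 3 began at the same base on the mRNA. Puf1 had no 3' UTR site in CCW12. Just before it, 25 to 51 nt past the stop codon, lay the strongest CCW12 site of Puf6 (71.7 RPM), and Puf5 had 104 RPM there. In the coding sequence, sites within bases 369836 to 369907 came from Puf5 (411 RPM), Puf4 (244 RPM), Puf1 (51.9 RPM) and Puf6 (28.8 RPM). Those of Puf5 and Puf6 had identical bounds, 369886 to 369907.

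**Figure D2:**
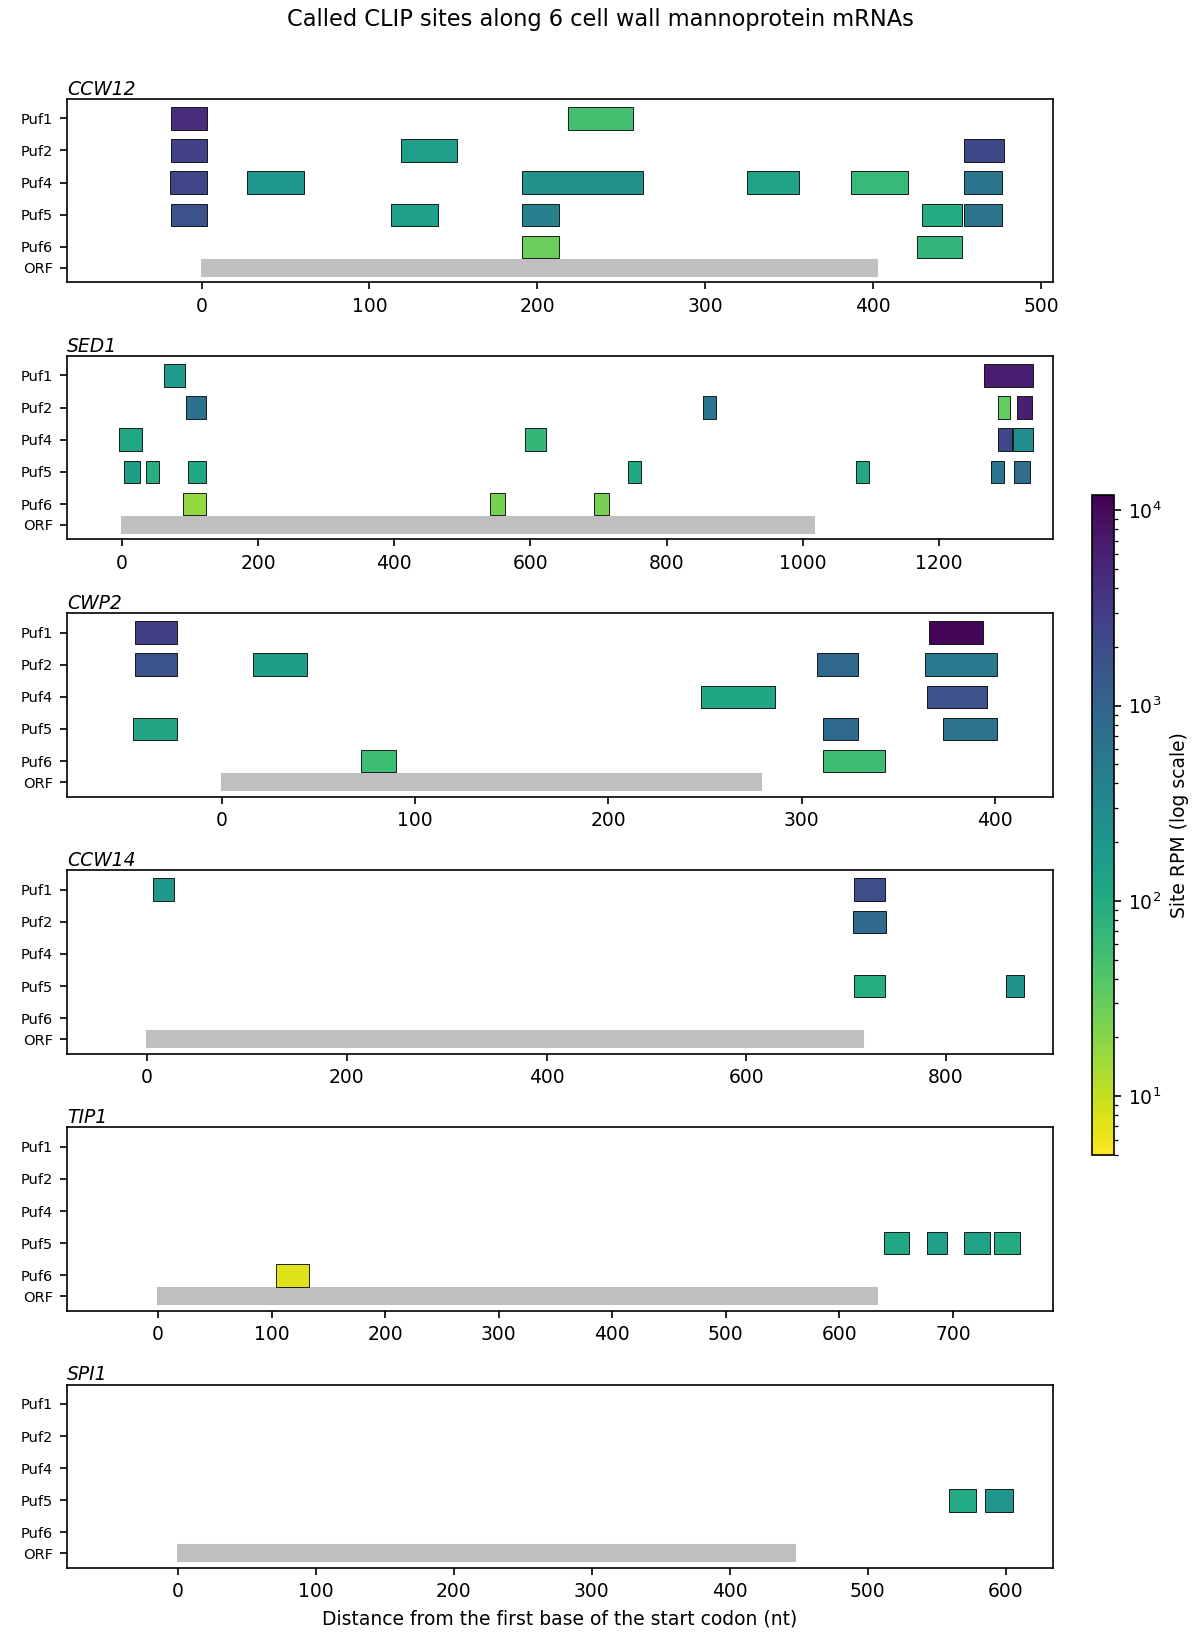
Called sites (coloured boxes) along 6 mRNAs, with the distance from the first base of the start codon in nt on the x axis, a row per CLIP library and the open reading frame (ORF) in grey. Colour gives site RPM on a log scale. Boxes line up at the CCW12 start codon in Puf1, Puf2, Puf4 and Puf5 and in the CWP2 and SED1 3' UTRs, while TIP1 and SPI1 hold 3' UTR sites of Puf5 alone.

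CWP2 (chromosome XI, 259253 to 259531, plus strand) had the strongest site of the whole group. Puf1 had 10679 RPM in its 3' UTR at 259619 to 259646, the sixth strongest mRNA site of that library and 78.9% of its CWP2 signal. The same stretch, 86 to 122 nt past the stop codon, had 1695 RPM in Puf4, 610 RPM in Puf5 and 506 RPM in Puf2. It was the main CWP2 site in Puf1 and Puf4, where no other 3' UTR site was called in this gene.

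A nearer 3' UTR stretch, 30 to 64 nt past the stop codon, was called in other libraries. It had 903 RPM in Puf2, 817 RPM in Puf5 and 56.5 RPM in Puf6. In Puf2 and Puf5 this nearer site was thus the stronger of their 3' UTR sites in CWP2. Neither Puf1 nor Puf4 had a called site there.

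CWP2 also carried a 5' UTR site, 24 to 46 nt upstream of the start codon. It had 2851 RPM in Puf1, 1618 RPM in Puf2 and 124 RPM in Puf5, and was the strongest CWP2 site of Puf2. The 3 sites ended at the same base, and those of Puf1 and Puf2 also began at the same base. Each coding site of CWP2 came from a single library, with 162 RPM in Puf2, 121 RPM in Puf4, where the site ran over the stop codon, and 57.7 RPM in Puf6. These were the weakest CWP2 sites of Puf2 and Puf4, while in Puf6 the coding site was about as strong as the 3' UTR site.

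SED1 (chromosome IV, 600793 to 601809, plus strand) held 20 sites, the most of the group, and its longest reading frame, 1017 nt. With sites of all regions and libraries counted, CWP2 held 46.6 and CCW12 44.8 sites per kilobase of reading frame, against 19.7 in SED1. Coding sites were only 3 of 13 in CWP2, 8 of 18 in CCW12 and 12 of 20 in SED1. UTR sites thus raise the values of the shorter reading frames, and no density of coding sites is given. The main SED1 signal lay far into the 3' UTR, 250 to 321 nt past the stop codon. Puf1 had a single site there that spanned 71 nt (602059 to 602130) with 6518 RPM.

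In the other libraries this stretch was called as a pair of sites, and the stronger site differed between proteins. Puf2 had 32.2 RPM in the upstream site and 6118 RPM in the downstream site (602107 to 602128), a ratio of 190 for downstream over upstream. Puf4 had 2282 RPM upstream (602080 to 602099) and 267 RPM downstream, a ratio of 8.55 for upstream over downstream. Puf5 had 591 RPM upstream and 785 RPM downstream. Puf6 had no called site in the SED1 3' UTR. These ratios compare sites within a library, and without a second library of any protein their spread is not known.

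SED1 had 12 coding sites with 17.8 to 655 RPM, and 6 of them lay at positions called in 2 or more libraries. All SED1 sites of Puf6 were coding. Near the start of the reading frame Puf4 had 115 RPM over the start codon and Puf5 163 RPM just after it. A stretch 62 to 122 nt into the reading frame had sites of Puf2 (655 RPM), Puf1 (183 RPM), Puf5 (118 RPM) and Puf6 (17.8 RPM). Among the mRNA sites of their library they ranked 266 of 1032 (Puf2), 344 of 435 (Puf1), 1146 of 2264 (Puf5) and 368 of 438 (Puf6). The sites of Puf2, Puf5 and Puf6 ended at the same base, and that of Puf1 met the site of Puf6 alone.

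In the middle of the SED1 reading frame, a pair of Puf6 sites 153 nt apart had the same RPM (25.2) and the same span of 22 nt. Whether they share reads was not tested. Counting them once left 7 sites of the group in Puf6 in place of 8.

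CCW14 (chromosome XII, 903724 to 904440, plus strand) had its shared site across the stop codon. The site was called at 904432 to 904462 in Puf1 (1930 RPM) and Puf5 (96.3 RPM) and at 904431 to 904463 in Puf2 (851 RPM). It was classed as 3' UTR and covered all 3 bases of the stop codon. Puf5 had a stronger site farther on, 144 to 161 nt past the stop codon, with 211 RPM, and Puf1 had 188 RPM within the first codons. Among the mRNA sites of their library these ranked 505 of 2264 (Puf5) and 343 of 435 (Puf1). Puf4 and Puf6 had no CCW14 site.

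TIP1 (chromosome II, 372103 to 372735, minus strand) was marked by a row of Puf5 sites in the 3' UTR. The 4 sites had 114, 149, 136 and 102 RPM, in order from the stop codon, and lay between 7 and 126 nt past it. No site of this row stood out, and the strongest held 29.7% of their sum. The only other TIP1 site was a coding site of Puf6 with 7.46 RPM, the lowest value of the 63 sites.

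SPI1 (chromosome V, 468370 to 468816, plus strand) had a pair of Puf5 sites in the 3' UTR, with 111 and 206 RPM, between 113 and 158 nt past the stop codon. The median of all Puf5 mRNA sites was 119 RPM, and the stronger SPI1 site ranked 518 of 2264. No other library had a SPI1 site.

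CWP1 (chromosome XI, 261132 to 261851) and TIR1 (chromosome V, 175248 to 176012) had no called site in any library, and none under another name lay within their bounds. Of the 485 genes at or above the level of CWP1, 9.07% had no site in any library. CWP1 had 396 RPKM, above the 180 RPKM of SPI1. TIR1 had the lowest level of the 8, and among 436 genes with 1 to under 10 RPKM, 11.7% had a site in at least 1 library. The lists hold called sites only, so weaker binding in either mRNA was not detectable here.

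Positions were then compared across libraries, taking sites that overlapped by at least 1 nt, directly or through a site of another library, as 1 position. The 63 sites fell on 34 positions, of which 12 were called in 2 or more libraries and held 41 of the sites. None was called in all 5 libraries, while 5 were called in 4 and 4 in 3. Of those called in 4, the CCW12 and SED1 coding positions have no base common to all 4 libraries. There the Puf1 site met only that of Puf4 in CCW12 and only that of Puf6 in SED1. CCW12 had 5 of the 12 shared positions, SED1 3, CWP2 3 and CCW14 1. TIP1 and SPI1 had none. Shared positions were not counted in other genes, so whether these numbers are usual for abundant mRNAs is not known.

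Shared positions were found in every region. Both 5' UTR positions were shared, as were 6 of 15 positions in the 3' UTR and 4 of 17 in the coding sequence. At 5 positions sites of at least 2 libraries had identical start and end: the CCW12 start codon, its coding stretch and its 3' UTR, the CWP2 5' UTR and the CCW14 stop codon. Every library was treated with RNase T1, and its part in these common ends was not tested.

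Library by library, 10 of the 12 Puf2 sites overlapped a Puf5 site, as did 5 of 8 Puf1 sites, 7 of 12 Puf4 sites and 4 of 8 Puf6 sites. Puf5 had the most sites of the group to meet, 23. In the other direction 10 of the 23 Puf5 sites met Puf2, 7 Puf4, 6 Puf1 and 4 Puf6. Of the 8 Puf6 sites, 2 met Puf2, 1 met Puf1 and 1 met Puf4. Puf5 also had the most positions of its own, 10 of the 22 called in a single library, followed by Puf4 with 5, Puf6 with 4, Puf2 with 2 and Puf1 with 1. Such overlaps were not counted over all genes, so nothing particular to this group is read from them.

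**Figure D3:**
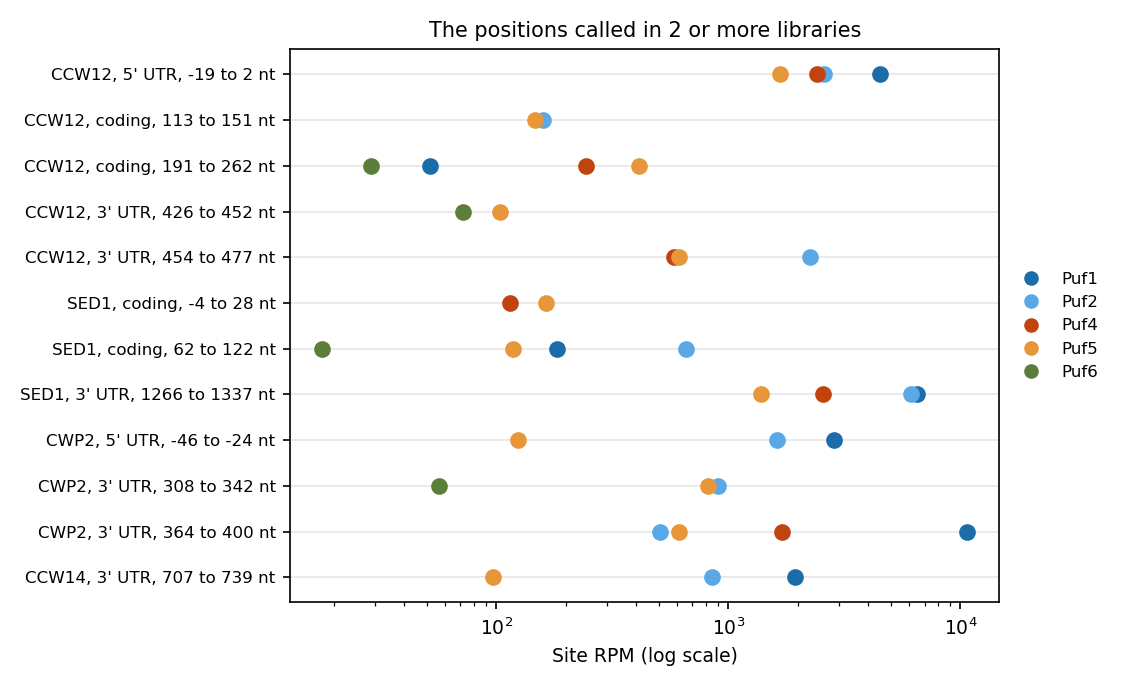
Site RPM (log axis) in each library at the 12 positions called in 2 or more libraries, labelled by gene, region and distance from the first base of the start codon. Points of the same colour belong to 1 library, and where a library had a pair of sites at a position their RPM was summed. By RPM, Puf1 is highest at the CCW12 start codon, both ends of CWP2, the CCW14 stop codon and, closely followed by Puf2, the SED1 3' UTR. The median of all mRNA sites was also highest in Puf1, with 1230 RPM against 204 RPM in Puf2, so these heights do not rank the proteins.

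By region, the 63 sites were 31 in 3' UTRs, 25 in coding sequences and 7 in 5' UTRs. Puf1 had 3' UTR sites in 3 of the 8 genes, against 2.7% of all genes tested, Puf2 in 4, against 4.64%, and Puf4 in 3, against 8.35%. Puf5 had them in 6, every gene of the group with a Puf5 site, against 17.3%, and Puf6 in 2, against 1.49%. The 3' UTR sites held 71.1% of the group's RPM in Puf1, against 64.0% for all mRNA sites, and 64.9% against 55.5% in Puf2. In Puf4 and Puf5 their share was below that of all mRNA sites, with 59.8% against 69.2% in Puf4 and 62.7% against 79.7% in Puf5. It was 44.2% against 8.85% in Puf6, on 8 sites. By number, 3' UTR sites were 3 of 8 in Puf1 (44.6% of all mRNA sites) and 6 of 12 in Puf2 (32.3%). They were 5 of 12 in Puf4 (30.1%), 15 of 23 in Puf5 (59.0%) and 2 of 8 in Puf6 (19.6%). In Puf1, Puf4 and Puf5 the direction by number was thus the reverse of that by RPM. Sites in the 5' UTR held 27.4% of the group's RPM, against 16.7% for all mRNA sites, in Puf1 and 25.5% against 17.9% in Puf2. The gap was wider in Puf4, with 29.4% against 5.33%, and in Puf5, with 23.6% against 5.88%. By number, 5' UTR sites were 1 of 12 in Puf4 (4.52% of all mRNA sites) and 2 of 23 in Puf5 (9.32%). They were 2 of 8 in Puf1 (10.3%) and 2 of 12 in Puf2 (9.11%), so these shares rest on very few sites. The 5' UTR signal came from CCW12 and CWP2, and in Puf4 from CCW12 alone. In Puf6, where no 5' UTR site was called, coding sites held 55.8% of the group's RPM, against 87.1% for all mRNA sites.

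**Figure D4:**
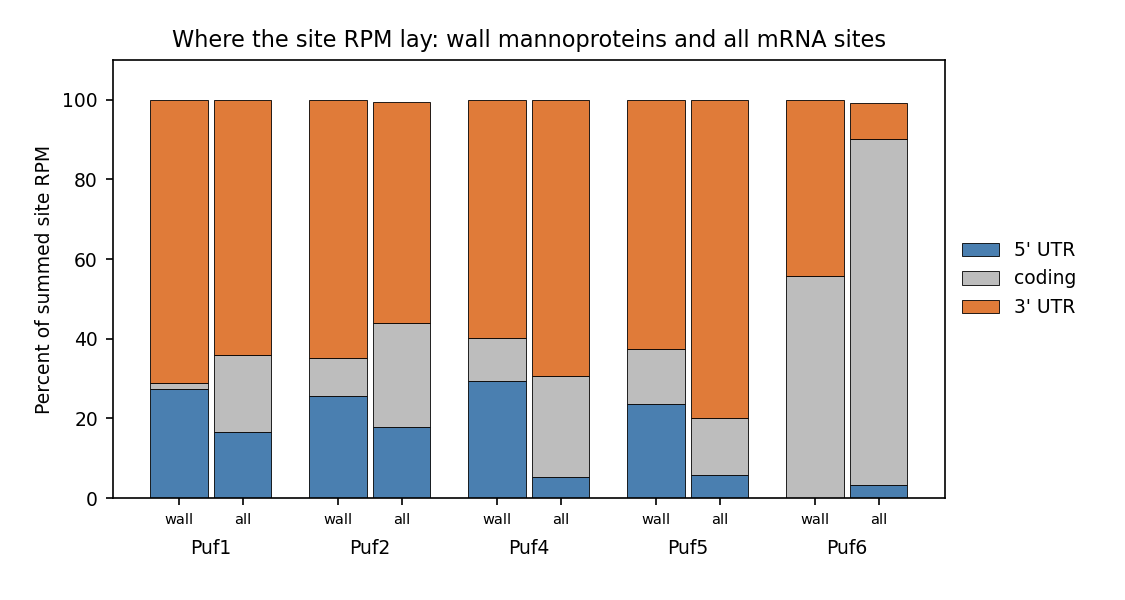
Percent of summed site RPM in 5' UTRs, coding sequences and 3' UTRs for the cell wall mannoproteins (wall, left bar) and for all mRNA sites (all, right bar) of each library. Introns make up what is missing from 100%. The 5' UTR share is larger in the left bar in Puf1, Puf2, Puf4 and Puf5 and is 0 in Puf6.

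Start and stop codons were covered by 5 sites each out of the 63. Over all 5874 sites named for protein-coding genes and lying on their strand, 1.45% covered a start codon and 2.38% a stop codon. The start codon sites were those of CCW12 in 4 libraries and of SED1 in Puf4. The stop codon sites were those of CCW14 in 3 libraries and, in Puf4, of CCW12 (64.1 RPM) and CWP2. Both counts rest on a few genes called in several libraries.

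The group's share of the mRNA signal was largest for Puf1. Its sites held 4.14% of the RPM of all mRNA sites in Puf1, 3.09% in Puf2, 1.24% in Puf5, 1.08% in Puf4 and 0.638% in Puf6. In Puf1 CWP2 alone held 2.08%, SED1 1.03% and CCW12 0.702%. In Puf2 the order was SED1 with 1.39%, CCW12 with 0.936% and CWP2 with 0.599%.

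Ranked by summed RPM among all protein-coding genes with a site, CWP2 was at 6 of 329 in Puf1, between NCE102 (13682 RPM) and MRH1 (12124 RPM), and had 13530 RPM itself. SED1 led the group in Puf2, at 9 of 659, with 7400 RPM between PMP2 (7641 RPM) and RPI1 (7073 RPM). CCW12 led it in Puf4, at 27 of 1099 (3634 RPM, between VTC4 and RPL18B), and in Puf5, at 24 of 1416 (2947 RPM, between RPS21A and YEF3). In Puf6 CWP2 led at 18 of 368, with 114 RPM between BGL2 and CLU1. Whether such neighbours in rank differ beyond the spread of repeated libraries is not known.

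Set against mRNA level, the order of the genes changed. CCW12 had 0.357 RPM per RPKM with Puf1, 0.390 with Puf2, 0.284 with Puf4, 0.231 with Puf5 and 0.00786 with Puf6. The medians over all genes with a site were 3.37 (Puf1), 1.22 (Puf2), 1.31 (Puf4), 1.37 (Puf5) and 0.254 (Puf6), so CCW12 was below the median in every library. These medians leave out genes without a called site, and the ratio divides by the level, in which CCW12 ranked 2 of 5880. Its low ratio is therefore not read as weak binding. CWP2 had 18.5 with Puf1, 4.36 with Puf2, 2.48 with Puf4, 2.12 with Puf5 and 0.156 with Puf6, above the median in all but Puf6. SED1 lay between them, above the median in Puf2 (2.66) and below it in Puf1 (2.41), Puf4 (0.983), Puf5 (0.711) and Puf6 (0.0245). Of the genes with fewer sites, CCW14 was at the median in Puf1 (3.37), above it in Puf2 (1.35) and below it in Puf5 (0.489), TIP1 was below it in Puf5 (0.832) and Puf6 (0.0124), and SPI1 was above it in Puf5 (1.77). The RPKM came from cells of the other mating type labelled puf3Δ, for which no 4-thiouracil or light exposure is named. Whether these mRNAs differ in level in the CLIP cultures was not tested.

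**Figure D5:**
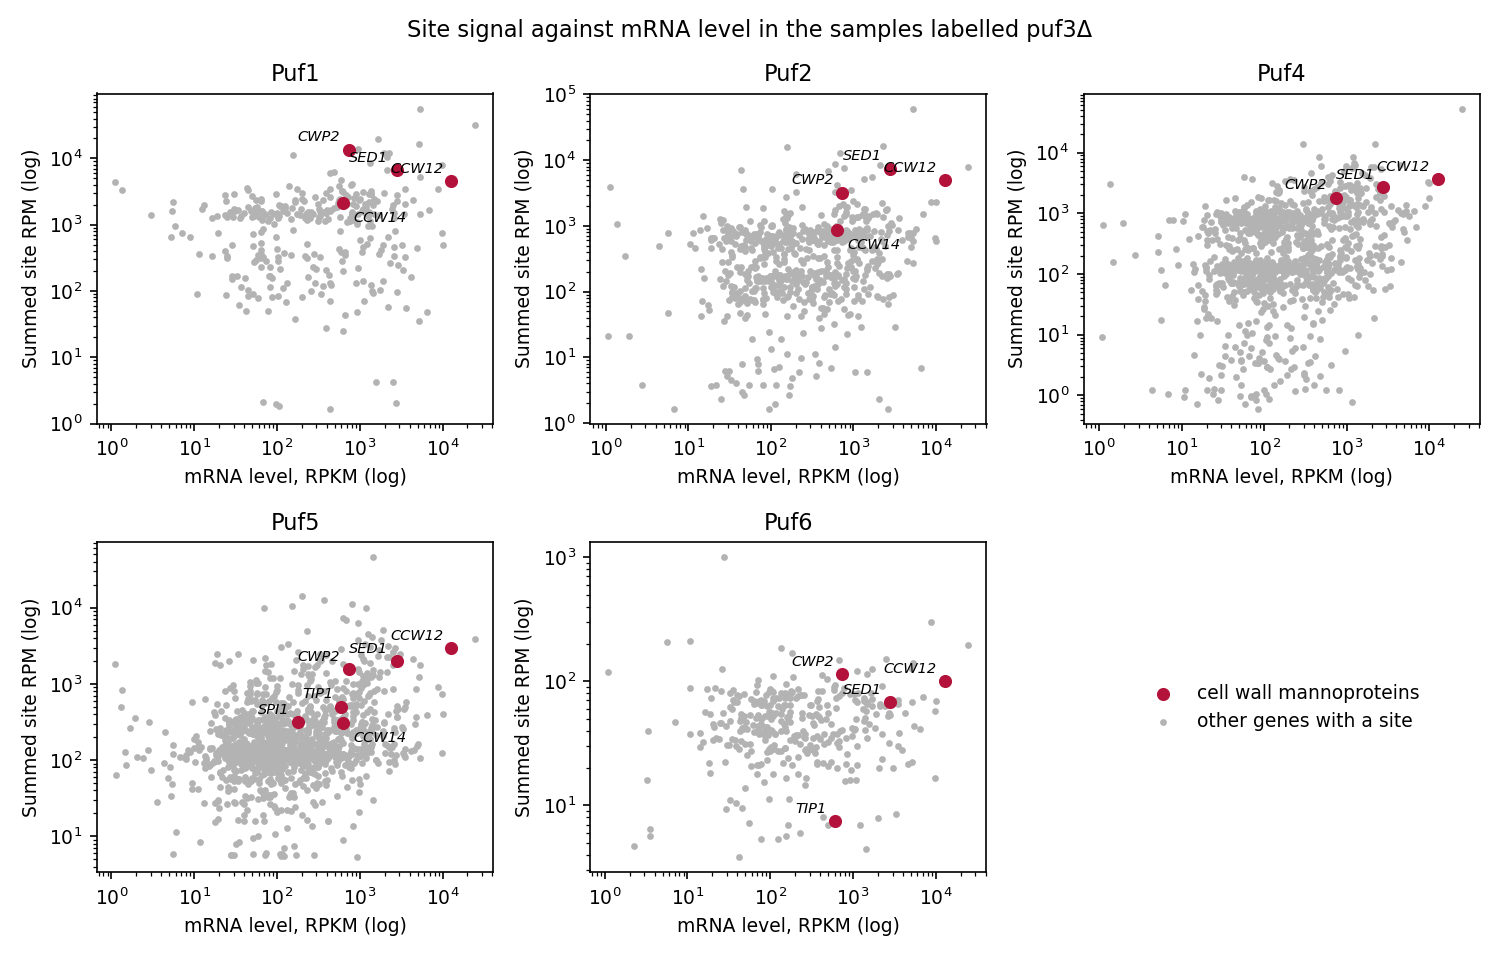
Summed site RPM of each gene with a called site against its mRNA level in RPKM, both on log axes, in a panel per library for genes of at least 1 RPKM. Red points are the cell wall mannoproteins and grey points all other genes. CCW12 sits at the right edge with 12775 RPKM, while CWP2 has about the level of CCW14 and TIP1 (601 to 732 RPKM) and more signal than either in every library where they have sites.

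The same pathway was described with 3 further lists chosen by name. Of 32 other GPI-anchored wall and surface proteins, 24 (75.0%) had a site in at least 1 library, against 42.1% of all genes tested. The list was not filtered by level, and 29 of its genes reached the 1 RPKM required of all genes tested. Its median level was 71.9 RPKM. By library, 6 of the 32 had a site with Puf1 (5.81% of all genes), 7 with Puf2 (11.7%), 11 with Puf4 (19.7%), 16 with Puf5 (25.0%) and 12 with Puf6 (6.34%). DSE2, a glucanase-like protein of daughter cell separation, and GAS1, a glucan-remodelling enzyme, had sites in all 5, as did 0.688% of all genes tested. The strongest sites of this list lay in the 3' UTRs of DSE2 (3432 RPM in Puf4), ECM33, a GPI protein needed for wall integrity (3186 RPM in Puf5), and the glycosidase gene UTR2 (1385 RPM in Puf5).

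The machinery that makes these proteins was also covered. Of 28 genes for GPI anchor assembly and transfer, 12 (42.9%) had a site, against 42.1% of all genes tested, at a median level of 56.2 RPKM, close to that of all genes. By library, 0 had a site with Puf1 (5.81% of all genes), 2 with Puf2 (11.7%), 8 with Puf4 (19.7%), 6 with Puf5 (25.0%) and 1 with Puf6 (6.34%). The strongest were GUP1, which remodels the anchor lipid (627 RPM in Puf2), GPI13 (587 RPM in Puf4) and MCD4 (500 RPM in Puf4), which both add phosphoethanolamine to the anchor. Of 27 mannosylation genes, 19 (70.4%) had a site, against 42.1% of all genes tested and 78.0% of those at or above the level of SPI1, at a median level of 208 RPKM. They were 4 with Puf1 (5.81% of all genes), 5 with Puf2 (11.7%), 8 with Puf4 (19.7%), 9 with Puf5 (25.0%) and 3 with Puf6 (6.34%). MNN10, a mannosyltransferase subunit of the Golgi (1381 RPM in Puf1), PSA1, which makes GDP-mannose (1325 RPM in Puf5), and MNN9 (705 RPM in Puf4), another Golgi mannosyltransferase subunit, were strongest. No anchor or mannosylation gene had sites in all 5 libraries. Only 0.688% of all genes tested had them, so nothing is read from their absence in such short lists.

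Finally, genes were ranked by how near their signal over the 5 libraries was to the mean of the 8, as the distance between values of log10(summed RPM + 1). The nearest were GDH1 (distance 1.05), ASC1 (1.53), RPL14A (1.68), AOS1 (1.69) and ITR1 (1.70), which encode a glutamate dehydrogenase, a ribosome-bound scaffold, a ribosomal protein, a SUMO-activating subunit and an inositol transporter. The mean mixes genes with and without sites and matched no gene closely. Taken alone, and chosen after the values were seen, CCW12 and SED1 were both nearest to DSE2 (0.355 and 0.447), which had 3103 RPM with Puf1, 4248 RPM with Puf2, 3962 RPM with Puf4, 1812 RPM with Puf5 and 60.6 RPM with Puf6. CWP2 was nearest to HSP150 (0.546), another wall protein gene. HSP150 had 19837 RPM with Puf1, 5566 RPM with Puf2, 4316 RPM with Puf4, 2316 RPM with Puf5 and 71.5 RPM with Puf6. On this scale a library without a site adds a large distance, and only 0.688% of genes tested had sites in all 5 libraries. Few genes could thus lie near CCW12, SED1 or CWP2, and nothing particular to wall genes is read from these matches.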

How the data were processed

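CLIP libraries of Puf1, Puf2, Puf4, Puf5 and Puf6 (1 each) and 2 mRNA-seq samples labelled puf3Δ were used. The authors deposited called sites with RPM, and 1 RPKM column for both mRNA-seq samples; CASAVA 1.8.2 (CLIP), Bowtie 0.12.7 and sacCer3 are named per the submitters' processing notes. The site caller, its threshold, the UTR annotation and how the 2 samples were joined are not stated by the labels or headers. Deposited RPM fell on steps of whole reads for only 26.4% to 75.8% of mRNA site values under 60 RPM, within 0.0055 RPM, so reads, intervals and floors were not computed.

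Sites were taken by the name column. Gene bounds, symbols and biotypes came from RefSeq R64, where 5893 of 6550 RPKM genes and all 8 genes studied matched by locus tag. An mRNA site was any in a coding sequence, UTR or intron. The background was 5521 protein-coding genes with at least 1 RPKM. Positions are printed as deposited, and distances take them to count from 1. Overlap required 1 nt on the same strand, and sites linked through another site counted as 1 position. The genes named were all 8, up to 3 per list with the highest site RPM, the 5 nearest in signal and the neighbours in rank of the strongest. Genes and lists were chosen with earlier results of these data known, and no test was made. The position code was tested on simulated data with well separated positions whose sites all overlapped directly. Sites joined only through another site were not simulated. No sequences were used. Python 3.11.15 and pandas 2.3.3 were used.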

Additional observations from a re-analysis of the deposited data

How the results depend on the processing

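Of 74 recomputed values, 53 stayed within 1.5 times the value given, or for shares of all genes within its 95% exact binomial interval, and 21 did not. With the 50% of sites of highest RPM, the group's sites numbered 5 in Puf1 and 4 in Puf6, and Puf6 had 2 of the 8 genes. With 3' UTR sites alone Puf6 also had 2, and with coding sites alone Puf5 had 2. Taking sites by the bounds of the reading frame, which leaves out most UTR sites, left 5 sites in Puf1, 6 in Puf2 and 8 in Puf5, and 3 genes in Puf5. With the RPM of all sites as divisor the group held 1.96% in Puf2 and 0.0691% in Puf6. With identical start and end required, 5 positions were shared, and with 50% of both sites 14, since that overlap splits chained sites. Without an RPKM minimum 18.6% of all genes had a site in Puf4 and 23.7% in Puf5, and with a minimum of 10 RPKM 21.1% and 26.4%. Above the level of SPI1, a limit chosen after seeing the data, the shares were 18.6% with Puf1, 34.2% with Puf2, 50.1% with Puf4, 50.2% with Puf5 and 16.1% with Puf6. The median log2(RPKM + 1) of the 8 genes was 9.27, and 9.26 with a pseudocount of 0.1. No paired analysis was possible because each protein had 1 library and both mRNA-seq samples share 1 column, and no library could be left out for the same reason.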
